A study of Mus musculus with 28 samples.

Results

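Solute carriers, the proteins encoded by the Slc genes, move sugars, amino acids, ions, metals, nucleotides, vitamins and lipids across membranes. Most are exchangers or cotransporters that run on gradients of sodium, protons or the substrate itself, and the Slc25 family carries metabolites across the inner mitochondrial membrane. Mouse pluripotent cells are known for high glycolytic flux and a strong demand for amino acids such as glutamine and threonine. The Slc genes described here were all genes whose symbol is Slc followed by a family number, a family letter and a member number, which held for 245 of the 11807 genes of the table of 24 arrays. Membership came from the symbol alone, and a gene with several probe sets is given by its brightest. By the substrate that textbooks assign, 34 carry amino acids, 20 sugars, 9 carboxylates such as lactate, 38 inorganic ions, 25 metal ions, and 25 nucleosides or nucleotide sugars. A further 31 are mitochondrial Slc25 carriers, and 63 form a class of vitamins, lipids, organic ions and all families not listed elsewhere.

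The arrays followed reprogramming of mouse embryonic fibroblasts (MEFs) into induced pluripotent stem (iPS) cells. MEFs came from E13.5 embryos of strain C57BL6/129 that carried the OKSM cassette (Pou5f1, Klf4, Sox2 and Myc) and the Rosa26-M2rtTA allele, het/het or ho/ho without a statement of which culture had which, so that doxycycline in ESC medium with serum and LIF induced the factors in all of them. On days 3, 6, 9 and 12 of doxycycline the cultures were sorted into Thy1+ cells, which keep a fibroblast surface protein, cells negative for both markers (here double-negative), and SSEA1+ cells, which are Thy1-negative and carry an antigen of mouse pluripotent cells. A further SSEA1+ fraction of day 12 was positive for the reporter GFP (here GFP+; which gene drives it is not named), and the iPS cells were labelled SSEA1+ and GFP+. The arrays labelled M2 and M3 cover the MEFs and each fraction of days 3 and 6, M2 alone each fraction of days 9 and 12, and 3 arrays the iPS cells (1-3, 1-5 and 1-6). Feeder cells were removed from iPS cultures by preplating only. Another array design held SSEA1+ cells of day 6 divided by EpCAM, a surface protein of epithelial cells, on 2 arrays for each side and with 254 Slc genes. Whether replicate arrays hold RNA of different animals or cultures is not said, so the p-values rest on a spread that may be technical only, and the small number of arrays limits the precision. All values are log2 signals as deposited, and differences are of log2 group means.

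All 7 measured fibroblast markers were lower and all 8 measured pluripotency markers higher in iPS cells than in MEFs. The mean log2 signal of the fibroblast markers was 12.26 and 12.31 on the MEF arrays and 6.77 to 7.88 on the iPS arrays, with 7.88 on the 1-3 array. The mean of the pluripotency markers was 4.27 and 4.34 in MEFs, 9.38 on the day 12 SSEA1+ array, 11.16 in GFP+ cells and 11.40 to 11.80 in iPS cells. Of 9 measured macrophage markers 1 was higher and 2 were lower in iPS cells, and their mean stayed between 4.42 and 5.08 on every array. Of 6 trophoblast markers, among them the keratin genes Krt8 and Krt18 that other epithelia share, 3 were higher in iPS cells, and their mean was 4.895 and 4.95 in MEFs, 7.10 in GFP+ cells and 6.15 to 6.83 in iPS cells. The day 6 Thy1+ M2 array had a 3′ to 5′ signal difference of 1.78 for Gapdh and 1.49 for Actb, against 0.58 to 1.11 and 0.68 to 1.18 on the other arrays, and the root mean square SD of the Slc genes was 0.357 in that group, 0.257 in iPS cells and 0.126 to 0.157 in the other replicated groups. Of the 245 Slc genes 88, or 35.9%, were among the dimmest 25% of all genes by mean signal, where low levels cannot be told from absence. In bulk samples, fewer cells of a type and less RNA per cell cannot be told apart.

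Which transporters separate iPS cells from MEFs was asked first. Slc27a2, which takes up and activates long fatty acids, was higher in iPS cells by 5.83 (log2 difference, SE 0.29, adjusted p = 4.39e-10), and the intestinal peptide transporter gene Slc15a1 by 5.42 (SE 0.21, adjusted p = 6.16e-11). The high-affinity glucose transporter gene Slc2a3 was higher by 3.85 (SE 0.27, adjusted p = 1.75e-08), followed by the mitochondrial aspartate-glutamate carrier gene Slc25a13 at 2.94, the zinc importer gene Slc39a4 at 2.80 and the arginine and lysine transporter gene Slc7a3 at 2.74. The largest falls were of the magnesium transporter gene Slc41a2 at −3.41, the glycine transporter gene Slc6a9 at −3.34 (SE 0.15, adjusted p = 1.45e-10), the chloride-bicarbonate exchanger gene Slc4a2 at −3.25, the sodium-calcium exchanger genes Slc24a3 at −3.24 and Slc8a1 at −3.03, and the iron exporter gene Slc40a1 at −2.80 (SE 0.33, adjusted p = 3.82e-06). Calls needed a difference of at least 2-fold and, in limma with Benjamini-Hochberg adjustment across the whole table, an adjusted p under 0.05. By that rule 81 of 245 Slc genes were called, 37 higher and 44 lower in iPS cells. That is 33.1% of them, close to the 30.8% of all 11807 genes that were called (15.4% higher and 15.3% lower). The arrays of the groups overlapped for 1 of the 81, Slc39a8. How often they overlapped among all called genes was not counted, so this says nothing particular to the Slc genes. The median log2 difference was −0.05 over the Slc genes and 0.01 over all genes. The ranking and the calls rest on the brightest probe set of each gene. For Slc9b1 that probe set, with a mean signal of 4.278, differed by −0.052. Its other probe sets, also dim, were higher in iPS cells by 4.091, 4.003 and 1.983. Slc14a1 differed by −0.483 in the probe set used and by −2.68 in its other one. Neither gene was called, and how many uncalled genes had such a probe set was not counted.

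The calls were then counted by class and direction. Of all genes 15.4% were called higher and 15.3% lower in iPS cells. Of 25 metal ion transporters 9 were lower and 4 higher in iPS cells, with a median log2 difference of −0.41. Of 25 nucleoside and nucleotide sugar transporters 6 were lower and 2 higher (median −0.51), and of 34 amino acid transporters 8 were lower and 5 higher (median 0.07). Sugar transporters had 3 higher and 2 lower of 20, inorganic ion transporters 5 and 4 of 38, mitochondrial carriers 5 and 4 of 31, carboxylate transporters 2 and 2 of 9, and the vitamin, lipid and organic ion class 11 and 9 of 63. These counts describe the classes, and whether any class differs from the others was not tested. The classes also differed in their share of genes among the dimmest 25%. It was 8% for metal ion, 47.1% for amino acid, 52.6% for inorganic ion and 55.6% for vitamin, lipid and organic ion transporters.

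**Figure D1:**
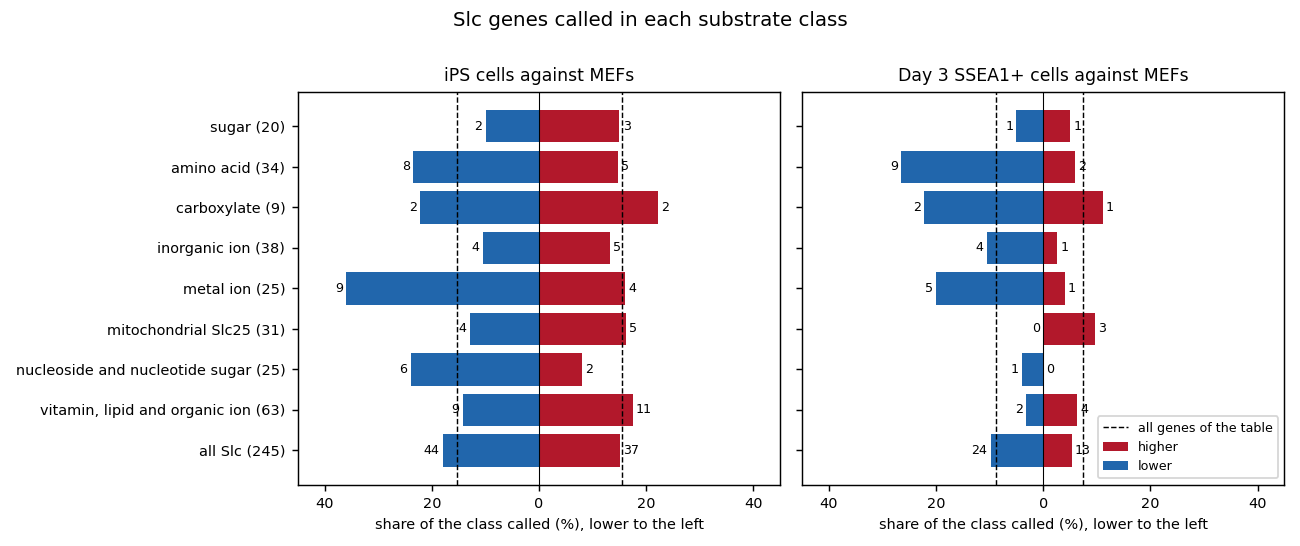
Share of each substrate class called higher (red, right) or lower (blue, left) in iPS cells (left panel) and day 3 SSEA1+ cells (right panel) than in MEFs, in percent of the class, with the count beside each bar, the class size in brackets and dashed lines at the share of all genes. Metal ion transporters reach furthest to the left in iPS cells (9 of 25), and amino acid transporters at day 3 (9 of 34).

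Day 3 was compared with MEFs in each sorted fraction. In SSEA1+ cells Slc6a9 fell by 4.31 (log2, SE 0.16, adjusted p = 1.92e-10), Slc40a1 by 3.90 (SE 0.36, adjusted p = 9.72e-07), Slc41a2 by 3.26, the neuronal glutamate transporter gene Slc1a6 by 2.92 and Slc24a3 by 2.62. The organic ion family gene Slc22a23, whose substrate is not settled, rose by 3.03, Slc7a3 by 2.71, Slc2a3 by 2.28, the monocarboxylate family gene Slc16a6 by 2.20 and Slc25a13 by 2.10. In all, 13 Slc genes rose and 24 fell in SSEA1+ cells, 15.1% against 16.1% of all genes (7.33% higher and 8.8% lower). In double-negative cells 11 rose and 21 fell, where 12.3% of all genes were called (5.72% higher and 6.55% lower). In Thy1+ cells 11 rose and 20 fell, where 10.7% of all genes were called (5.27% higher and 5.43% lower). All of these comparisons share the MEF arrays. Slc6a9 fell by 4.14 in Thy1+ cells, and in double-negative cells it stood at 6.75 and 6.88 against 10.82 and 10.81 in MEFs. Slc40a1 fell by 3.57 in double-negative and 3.15 in Thy1+ cells, and Slc22a23 rose by 2.66 in double-negative and 2.42 in Thy1+ cells. Amino acid transporters had 9 lower and 2 higher of 34 in SSEA1+ cells, metal ion transporters 5 lower and 1 higher of 25, and mitochondrial carriers 0 lower and 3 higher of 31. With an unadjusted p under 0.05 in place of the call rule, limma gave 4 mitochondrial carriers lower and 11 higher. The share of all genes at that threshold was not counted, and by the call rule 9.7% of the mitochondrial carriers passed.

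After day 3 few Slc genes were called in SSEA1+ cells, and few of all genes. From day 3 to day 6 3 rose and 0 fell, 1.2% of the Slc genes, where 1.8% of all genes were called (1.45% higher and 0.356% lower). With an unadjusted p under 0.05, limma gave 24 higher and 8 lower, and the share of all genes at that threshold was not counted. The 3 were Slc12a3, the thiazide-sensitive sodium-chloride cotransporter gene of the kidney, by 2.37 (SE 0.25, adjusted p = 7.63e-05), Slc25a23, a mitochondrial ATP-magnesium carrier gene, by 1.31 and the peptide transporter gene Slc15a2 by 1.07. The call of Slc15a2 was lost without any 1 of the 4 arrays and with the mean of its probe sets. From day 6 to the mean of days 9 and 12, 6 were called, 2.4% of the Slc genes against 2.39% of all genes (1.1% higher and 1.29% lower). Slc27a2 rose by 2.18, Slc6a15, which carries branched-chain amino acids and proline, by 1.17, the nucleoside transporter gene Slc28a3 by 1.09 and Slc12a3 by 1.02, while Slc38a4, a neutral amino acid transporter gene, fell by 1.76 and the choline transporter gene Slc44a1 by 1.02. Without the day 12 SSEA1+ array 2 were called, without the day 6 SSEA1+ M3 array 3, and after median scaling the split was 4 higher and 1 lower. Slc44a1 was at −0.83 without the day 12 SSEA1+ array (adjusted p = 0.114) and at −0.996 after median scaling, and with the mean of the probe sets the call of Slc28a3 was lost (0.63). All 8 pluripotency markers and 3 of 6 trophoblast markers rose and 3 of 7 fibroblast markers fell in this later step, and their part in the result was not tested.

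Thy1+ cells were read over the same days. From day 3 to the mean of days 9 and 12, 11 Slc genes rose and 6 fell in them, 17 in all, where 7.78% of all genes were called (4.36% higher and 3.42% lower). Slc40a1 rose by 2.88 (SE 0.36, adjusted p = 5.23e-05), Slc25a23 by 2.04, the zinc and manganese importer gene Slc39a8 by 2.02, Slc6a9 by 1.82 and Slc8a1 by 1.73. Those that fell were Slc25a24 by 1.61, Slc16a6 by 1.55, Slc25a13 by 1.29, Slc38a4 by 1.24, the lactate exporter gene Slc16a3 by 1.16 and the phosphate importer gene Slc20a1 by 1.12. Without the day 12 Thy1+ array the calls of Slc39a8 (1.33, adjusted p = 0.208) and Slc16a3 (adjusted p = 0.151) were lost. That of Slc39a8 was also lost without the day 3 Thy1+ M3 array (adjusted p = 0.0659), and that of Slc16a3 without either day 3 Thy1+ array (adjusted p = 0.0924 without M2 and 0.125 without M3). With the mean of its probe sets the rise of Slc8a1 was 0.93, under 2-fold. Fibroblast markers moved with these genes: 2 of 7 rose in the same comparison, as did 2 of 8 pluripotency and 2 of 9 macrophage markers, and the mean of the fibroblast markers was 10.64 and 10.77 on the day 3 Thy1+ arrays and 11.68 and 11.77 on those of days 9 and 12. Their part in the result was not tested.

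Over all days the SSEA1+ and Thy1+ fractions differed in 10 Slc genes, against 8.57% of all genes (3.5% higher and 5.07% lower), in a fit of 18 sorted arrays with terms for day and fraction. Slc7a3 was higher in SSEA1+ cells by 2.54 (SE 0.25, adjusted p = 4.96e-06), Slc2a3 by 1.23, the glutamine transporter gene Slc38a1 by 1.21 and Slc16a6 by 1.16. Lower in SSEA1+ cells were Slc40a1 at −1.78, Slc41a2 at −1.42, Slc8a1 at −1.38, Slc44a1 at −1.34 and Slc39a13, a zinc transporter gene of secretory vesicles and the Golgi, at −1.03. For these 9 genes the arrays of the fractions did not overlap on any day, and how often this held among all called genes was not counted. Slc12a3, named after its values were seen, was called at 1.53 although its day 3 arrays overlapped. Leaving out 1 array took the difference of Slc39a13 under 2-fold in 4 cases (−0.89 to −0.96) and that of Slc16a6 in 1 (0.94 without the day 12 Thy1+ array). All 7 fibroblast markers were also lower in SSEA1+ cells over all days, with a median of −1.77, and their part in the result was not tested.

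**Figure D2:**
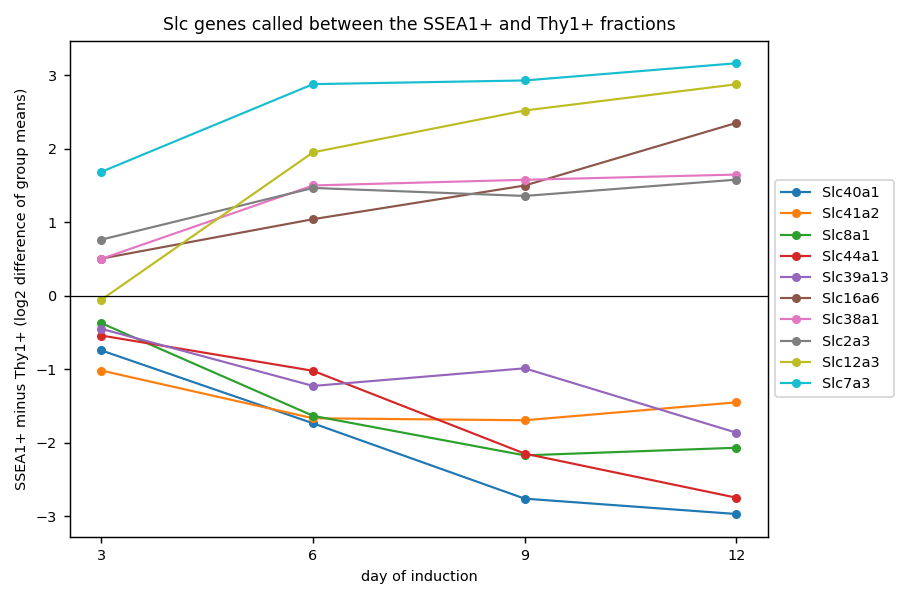
Difference of the group means of SSEA1+ and Thy1+ cells (log2, SSEA1+ minus Thy1+) on days 3, 6, 9 and 12 of induction for the 10 Slc genes called over all days, with 2 arrays per fraction on days 3 and 6 and 1 on days 9 and 12. Slc7a3 goes from 1.69 on day 3 to 3.16 on day 12 and Slc40a1 from −0.75 to −2.97, while Slc12a3 starts at −0.05 on day 3 and ends at 2.88.

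The change of that difference from day 3 to days 9 and 12 was tested as an interaction, which called 14 Slc genes, 7 in each direction, where 8.46% of all genes were called (3.87% higher and 4.59% lower). The SSEA1+ minus Thy1+ difference of Slc12a3 grew from −0.05 to 2.70, a change of 2.75 (SE 0.35, adjusted p = 0.00014). That of Slc7a3 grew from 1.69 to 3.05 and that of Slc40a1 from −0.75 to −2.87. The calls of Slc12a3, Slc44a1, Slc28a3, Slc38a1 and Slc48a1 held when any 1 array was left out. The other 9 were each lost in at least 1 such case. Slc27a2, at 1.58 with all arrays, was at 0.16 without the day 12 SSEA1+ array (adjusted p = 0.931), and Slc7a2, an arginine transporter gene, went from −1.49 to −0.81 without the day 12 Thy1+ array (adjusted p = 0.184). Slc7a3 stayed between 1.29 and 1.37 in the cases that cost its call (adjusted p = 0.0543 to 0.0634), and Slc40a1 was at −1.82 without the day 12 Thy1+ array (adjusted p = 0.0674). With the mean of the probe sets the calls of Slc28a3 (0.67), Slc38a4 (−0.84), Slc40a1 (−1.28, adjusted p = 0.057), Slc7a2 (−0.78) and Slc8a1 (−0.92) were lost.

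Day 12 GFP+ cells were set against day 12 SSEA1+ cells, 1 array against 1, with the spread of the replicated groups assumed for both. In GFP+ cells the light-chain amino acid exchanger gene Slc7a7 was higher by 2.48 (SE 0.51, adjusted p = 0.00566), the divalent metal transporter gene Slc11a1 by 2.21, Slc27a2 by 2.19, Slc40a1 by 1.74, the vitamin C transporter gene Slc23a1 by 1.61 and Slc15a1 by 1.47. Slc12a3 was lower by a log2 difference of −3.26 (SE 0.35, adjusted p = 3.52e-05) and Slc41a2 by −2.12. In all 12 were higher and 9 lower, against 7.18% of all genes called (2.46% higher and 4.73% lower). With the mean of the probe sets the calls of Slc40a1 (1.13, adjusted p = 0.111) and Slc23a1 (0.77) were lost. From GFP+ to iPS cells, 3 arrays against 1, 12 were higher and 8 lower, against 7.23% of all genes (3.99% higher and 3.24% lower). Slc15a1 was higher in iPS cells by 2.89, Slc41a2 by 1.86, the thiamine transporter gene Slc19a2 by 1.70, the organic anion transporter gene Slc22a7 by 1.56 and Slc38a4 by 1.498. Slc39a8 was lower by a log2 difference of −4.27, Slc15a2 by −2.15, Slc6a9 by −1.67 and Slc40a1 by −1.59. In a fit of only these groups 13 were called, and Slc40a1, Slc7a3 (−1.11), Slc29a1 (1.22), Slc24a1 and Slc47a1 were among those lost. Without the iPS 1-3 array Slc7a3 was at −0.86, under 2-fold.

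The glucose transporter genes took separate courses. Slc2a1, the general glucose transporter gene, stood at 12.24 and 12.16 on the MEF arrays, at 12.10 to 13.06 on all 24, and at 12.73 to 12.92 in iPS cells. Its difference between iPS cells and MEFs, 0.62 (SE 0.16, adjusted p = 0.00352), was under 2-fold. Slc2a3 stood at 8.86 and 8.95 in MEFs, 10.44 and 10.40 in Thy1+, 10.57 and 10.55 in double-negative and 11.16 and 11.21 in SSEA1+ cells of day 3. In SSEA1+ cells it then stood at 11.81 and 11.63 on day 6, 12.10 on day 9 and 12.48 on day 12, in GFP+ cells at 12.74 and in iPS cells at 12.68, 12.73 and 12.85. Every array of the sorted fractions lay above both MEF arrays, and the SSEA1+ arrays lay above the Thy1+ arrays of the same day. Thy1+ cells of days 6, 9 and 12 stood at 9.54 and 10.96, 10.74 and 10.90, the 9.54 being the M2 array with the high 3′ to 5′ difference. All 4 probe sets of Slc2a3 were higher in iPS cells, by 2.84 to 3.85. With their mean the differences from MEFs in day 3 Thy1+ cells (0.85) and double-negative cells (0.88) and that between the fractions over all days (0.71) were under 2-fold. Slc2a10, a glucose transporter gene of the secretory pathway, went the other way and stood at 6.96 and 6.59 in MEFs, 5.22 and 5.02 in day 3 SSEA1+ cells and 4.76 to 5.16 in iPS cells.

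Of the other sugar transporters, Slc37a1, a sugar-phosphate exchanger gene of the endoplasmic reticulum, was higher in iPS cells by 1.37 and the inositol transporter gene Slc5a11 by 1.09 (0.95 without the iPS 1-5 array). Slc50a1, a sugar efflux transporter gene of the SWEET family, was lower by a log2 difference of −1.81. It stood at 8.77 and 8.89 in MEFs, 7.36 on the day 12 SSEA1+ array, 6.94 in GFP+ and 6.70 to 7.25 in iPS cells, but at 8.91 on the day 12 Thy1+ array, above both MEF arrays.

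Among the amino acid transporters, Slc6a9 takes up glycine, a building block of purines and glutathione. It stood at 10.82 and 10.81 in MEFs and between 6.42 and 6.88 on all 6 arrays of day 3, with no overlap. It then stood at 8.59 and 8.39 in Thy1+ cells of days 9 and 12, 6.89 and 7.83 in SSEA1+ cells of those days, 9.14 in GFP+ cells and 7.20 to 7.75 in iPS cells. No array after MEFs reached the MEF level, and GFP+ cells lay above all iPS arrays. The dimmer of its 2 probe sets changed by −0.98 between iPS cells and MEFs, against −3.34 for the one used.

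Slc7a3 rose in the opposite way. It stood at 7.57 and 7.66 in MEFs, 8.64 and 8.63 in Thy1+, 9.37 and 9.12 in double-negative and 10.32 and 10.32 in SSEA1+ cells of day 3. SSEA1+ cells held 11.16 and 11.06 on day 6, 11.34 on day 9 and 11.47 on day 12, GFP+ cells 11.46 and iPS cells 9.86 to 10.65. The fractions of day 3 were ordered without overlap, Thy1+ lowest and SSEA1+ highest, and every SSEA1+ array from day 6 on lay above all iPS arrays. In Thy1+ cells of days 6 to 12 it stood between 7.93 and 8.53. Double-negative cells reached 11.20 on day 9 and 10.88 on day 12.

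Slc7a7 exchanges cationic for neutral amino acids together with the heavy chain encoded by Slc3a2. It stood at 7.37 and 7.32 in MEFs and 5.45 and 5.18 in day 3 SSEA1+ cells. It thus fell by 2.03 (SE 0.36, adjusted p = 0.000467). On the day 12 arrays it stood at 7.31 in Thy1+, 7.31 in double-negative, 7.15 in SSEA1+ and 9.62 in GFP+ cells, and in iPS cells at 8.63 to 9.89. It was therefore low in every fraction of day 3 and above both MEF arrays only in GFP+ and iPS cells. Slc3a2 itself stood between 10.36 and 11.25 on all 24 arrays and was called in no comparison of this table. Slc11a1 and Slc40a1, like Slc7a7, are known from macrophages, whose 9 measured markers had a mean of 4.71 in GFP+ cells and of 4.98 and 5.02 in MEFs, and their part in the result was not tested. Over all arrays Ptprc, the pan-leukocyte antigen gene, stood between 2.68 and 3.41, Adgre1 between 3.53 and 3.90 and Csf1r between 4.895 and 5.47. Cd68, a lysosomal protein gene, ranged from 4.57 to 8.65, Cd53 from 4.65 to 8.29, Cd14 from 4.61 to 6.54 and Lyz2 from 3.35 to 6.19.

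Slc38a4 fell late and came back. It stood at 10.42 and 10.57 in MEFs, 11.02 and 10.91 in SSEA1+ cells of day 3, 10.44 and 10.20 on day 6, 8.88 on day 9 and 8.24 on day 12. GFP+ cells held 9.68 and iPS cells 10.94 to 11.31. The low point was thus in the SSEA1+ and double-negative cells of day 12, the latter at 8.64, and the iPS arrays lay above both MEF arrays with a difference of 0.69 that was under 2-fold. Slc38a1 was higher in iPS cells by 1.08 and Slc6a15 by 2.07, and both already stood above the MEF arrays on every day 3 SSEA1+ array.

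Other amino acid transporters were read on day 3. Slc38a2, a neutral amino acid transporter gene, fell in day 3 SSEA1+ cells by 1.14, from 10.63 and 10.65 to 9.59 and 9.40. Slc7a5, the light chain of the leucine transporter, stood at 10.21 and 10.36 in MEFs, 8.94 and 8.99 in Thy1+, 9.11 and 9.14 in double-negative and 9.23 and 9.45 in SSEA1+ cells of day 3, and fell by 1.32 in Thy1+ and 1.16 in double-negative cells. In SSEA1+ cells its difference was −0.94, under 2-fold, and it stood at 10.38 in GFP+ and 9.73 to 10.28 in iPS cells, next to the MEF level. Slc7a11, the cystine-glutamate exchanger gene, fell by 1.02 in SSEA1+ cells of day 3, from 4.51 and 4.25 to 3.28 and 3.45, a gene among the dimmest 25%. The fall was under 2-fold after median scaling (−0.97) and without the MEF M2 (−0.89) or the day 3 SSEA1+ M2 array (−0.93). Slc1a5, the glutamine transporter gene, and Slc7a1, an arginine transporter gene, were called in no comparison of this table and stood at 8.56 to 9.84 and 4.56 to 5.07 on all arrays. The signal of Slc7a1 was low throughout, so an unchanged level cannot be told from a probe set that misses its transcript.

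**Figure D3:**
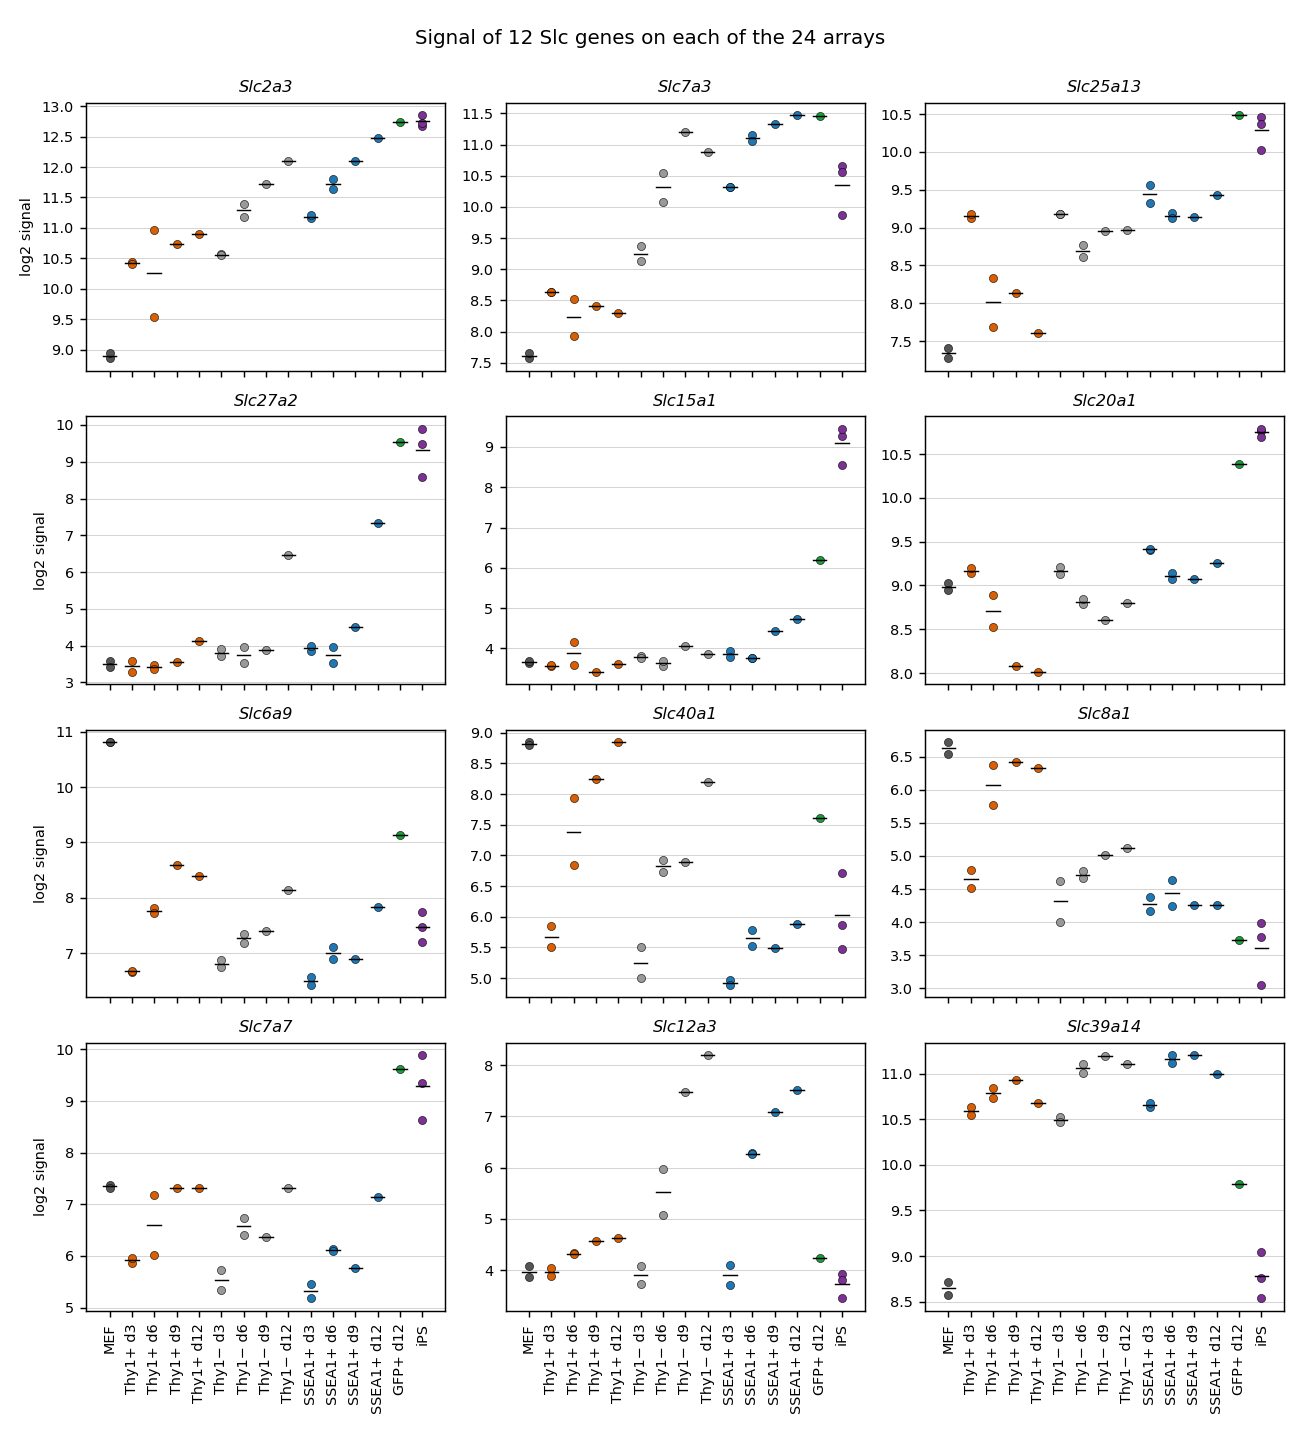
Log2 signal of 12 Slc genes (1 panel each, each with its own vertical scale) on the 24 arrays, with 1 point per array, a bar at the group mean, and groups ordered as MEFs, Thy1+, double-negative (Thy1−), SSEA1+, GFP+ and iPS cells. Slc6a9, Slc40a1 and Slc8a1 drop in all fractions of day 3, Slc15a1 is high in GFP+ and iPS cells, Slc27a2 also in SSEA1+ and double-negative cells of day 12, and Slc12a3 is high in SSEA1+ and double-negative cells of days 6 to 12 and near the MEF level in GFP+ and iPS cells.

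Lactate and pyruvate carriers include Slc16a1 and Slc16a3, which favour import and export of lactate. Slc16a1 was higher in iPS cells by 1.42 (SE 0.29, adjusted p = 0.000685), at 11.21 to 11.67 against 10.07 and 10.11 in MEFs, with no overlap. Slc16a3 stood at 10.66 and 10.58 in MEFs and 9.79 to 10.00 in iPS cells, a difference that did not pass (adjusted p = 0.0634). Slc16a7, a pyruvate transporter gene, was lower by a log2 difference of −2.01 in iPS cells and already by −1.90 in day 3 SSEA1+ cells.

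Among inorganic ion transporters, Slc8a1, the sodium-calcium exchanger gene of heart and other muscle, stood at 6.72 and 6.54 in MEFs and between 4.01 and 4.78 on the 6 arrays of day 3. Thy1+ cells stood at 6.38 and 5.77 on day 6, 6.43 on day 9 and 6.32 on day 12, SSEA1+ cells at 4.63 and 4.25, 4.25 and 4.25 on those days, GFP+ cells at 3.73 and iPS cells at 3.05 to 3.99. Thy1+ cells thus lay near the MEF arrays again, and SSEA1+, GFP+ and iPS cells below all Thy1+ arrays of days 6 to 12. The other probe set of Slc8a1 changed by −0.22 between iPS cells and MEFs, so that the fall was seen in 1 of 2 probe sets, and with their mean the calls of Slc8a1 between the fractions were lost (−0.71 over all days).

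Slc12a3 was low at both ends of the course. It stood at 4.08 and 3.87 in MEFs and 3.72 to 4.10 on the day 3 arrays. In SSEA1+ cells it stood at 6.29 and 6.26 on day 6, 7.09 on day 9 and 7.50 on day 12, and in double-negative cells at 5.08 and 5.98, 7.47 and 8.19. In Thy1+ cells it stayed between 4.31 and 4.63 on those days, in GFP+ cells it stood at 4.25 and in iPS cells at 3.45 to 3.93. SSEA1+ and double-negative arrays from day 6 on lay above all others. Atp12a, a proton-potassium pump gene, had a related course and is described with the ion pumps.

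Slc20a1, which imports phosphate, was higher in iPS cells by 1.76 (SE 0.12, adjusted p = 8.11e-09), at 10.69 to 10.79 against 9.03 and 8.94 in MEFs. GFP+ cells stood at 10.39 and the day 12 SSEA1+ array at 9.26, with a difference of 1.13 between them. Thy1+ cells fell to 8.08 and 8.01 on days 9 and 12, below both MEF arrays. The potassium-chloride cotransporter gene Slc12a7 was higher in iPS cells by 1.75. Slc12a2, the sodium-potassium-chloride cotransporter gene, stood at 9.03 to 10.44 on all arrays and was called in no comparison of this table.

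Among metal ion transporters, Slc40a1, the only known cellular iron exporter, stood at 8.85 and 8.80 in MEFs, 5.84 and 5.50 in Thy1+, 5.00 and 5.51 in double-negative and 4.97 and 4.88 in SSEA1+ cells of day 3. In Thy1+ cells it then stood at 6.85 and 7.93, 8.25 and 8.85, and in SSEA1+ cells at 5.78 and 5.53, 5.49 and 5.88 on days 6, 9 and 12. The Thy1+ array of day 12 had the level of the MEF arrays, and every SSEA1+ array lay below all Thy1+ arrays of days 6 to 12. GFP+ cells stood at 7.62 and iPS cells at 5.87, 5.48 and, on the 1-3 array, 6.71. The 1-3 array also had the highest fibroblast markers of the 3 iPS arrays, whose part in the result was not tested, and without it the difference between iPS cells and MEFs was −3.15. The other probe set of Slc40a1 changed by −1.24 between iPS cells and MEFs.

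Zinc and manganese importers of the Slc39 family took separate courses. Slc39a14 stood at 8.72 and 8.57 in MEFs and between 10.46 and 11.20 on all 18 arrays of Thy1+, double-negative and SSEA1+ cells, a rise of 2.01 in day 3 SSEA1+ cells (SE 0.15, adjusted p = 1.08e-07). GFP+ cells stood at 9.79 and iPS cells at 8.54 to 9.04, which overlapped with the MEF arrays. Slc39a8 stood at 6.71 and 6.78 in MEFs, 5.49 and 5.53 in day 3 SSEA1+ cells, 7.66 on the day 12 SSEA1+ array and 8.67 on the day 12 Thy1+ array. GFP+ cells held the highest value, 9.71, and iPS cells 4.70, 4.80 and, on the 1-3 array, 6.83. Its difference of −1.30 between iPS cells and MEFs (adjusted p = 0.0237) did not pass without either MEF array or without iPS 1-5 or 1-6 (adjusted p = 0.0844 to 0.1045), and was −1.995 without iPS 1-3. Slc39a4 was seen late, at 4.92 to 5.71 on every MEF and sorted array, 7.05 in GFP+ cells and 7.28 to 7.96 in iPS cells. Slc41a2 stood at 9.84 and 9.75 in MEFs, 6.35 and 6.73 in day 3 SSEA1+ cells, 4.53 in GFP+ cells and 5.98 to 6.87 in iPS cells. The zinc exporter gene Slc30a1 was higher in iPS cells by 1.35, and the zinc transporter genes Slc39a13, Slc39a6, Slc39a9 and Slc39a7 were lower, by log2 differences of −2.56, −1.67, −1.35 and −1.08. The other probe set of Slc39a6 changed by −1.16. Those of Slc39a9 changed by 0.59 and −0.04, and with the mean of its probe sets the call of Slc39a9 was lost (−0.27). Slc39a7 was at −0.995 without the iPS 1-6 array.

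EpCAM-positive and EpCAM-negative SSEA1+ cells of day 6 differed in 1 Slc gene, Slc39a8, against 0.75% of all 12394 genes of that table (0.484% higher and 0.266% lower). It stood at 6.38 and 6.60 on the EpCAM-negative and 8.16 and 8.13 on the EpCAM-positive arrays, a difference of 1.65 (SE 0.10, adjusted p = 0.00353) with no overlap. Without any 1 of the 4 arrays the difference was 1.54 to 1.76 and the call was lost (adjusted p = 0.0859 to 0.231), and with the mean of its probe sets the difference was 0.93. Slc12a3 stood at 6.82 and 6.93 on the EpCAM-negative and 6.07 and 6.11 on the EpCAM-positive arrays, a difference under 2-fold.

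Of the 31 mitochondrial carriers 9 were called between iPS cells and MEFs, 5 higher and 4 lower, where 30.8% of all genes were called. The ADP-ATP exchangers Slc25a4 and Slc25a5 and the phosphate carrier Slc25a3 supply the ATP synthase. They stood at 12.01 to 13.38, 11.54 to 12.75 and 11.52 to 12.28 on all arrays and were called in no comparison of this table. Between iPS cells and MEFs Slc25a5 differed by 0.92 (SE 0.10, adjusted p = 1.07e-06) and Slc25a4 by −0.59, both under 2-fold. Slc25a13 stood at 7.27 and 7.41 in MEFs, 9.33 and 9.56 in day 3 SSEA1+ cells, 9.43 on the day 12 SSEA1+ array, 10.48 in GFP+ cells and 10.02 to 10.47 in iPS cells. In Thy1+ cells it rose to 9.13 and 9.18 on day 3 and stood at 7.61 on day 12, next to the MEF arrays. The ornithine carrier gene Slc25a15 was higher in iPS cells by 1.91 (0.29 by its other probe set) and the pyrimidine nucleotide carrier gene Slc25a33 by 2.02. Of the ATP-magnesium carriers, Slc25a23 stood at 4.56 and 4.63 in MEFs, 7.47 to 8.04 in Thy1+, double-negative and SSEA1+ cells from day 6 on, 6.90 in GFP+ cells and 6.81 to 7.08 in iPS cells. Slc25a24 went from 6.13 and 5.94 in MEFs to 3.72 on the day 12 SSEA1+ array and 2.94 to 3.53 in iPS cells.

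Of 25 nucleoside and nucleotide sugar transporters 6 were lower and 2 higher in iPS cells, and the others did not pass. This class was set by family symbol, and some of the members counted in it have no settled substrate. Of all genes 15.3% were lower and 15.4% higher. Of the Slc35 family, Slc35f5, whose substrate is not settled, was lower by a log2 difference of −2.02, the UDP-sugar carrier gene Slc35b4 by −1.34 and the GDP-fucose carrier gene Slc35c1 by −1.22. The nucleoside transporter gene Slc29a1 was higher by 1.87, at 8.07 to 8.85 in iPS cells against 6.43 to 7.13 on every other array. Slc28a3, which concentrates nucleosides, stood at 4.96 and 5.40 in SSEA1+ cells of days 9 and 12 and below both on all other arrays, at 3.48 to 4.21.

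Lipid, peptide and vitamin transporters included the genes of largest difference. Slc27a2 stood at 3.57 and 3.41 in MEFs, 3.85 and 3.999 in SSEA1+ cells of day 3, 3.52 and 3.96 on day 6, 4.498 on day 9 and 7.34 on day 12. Double-negative cells reached 6.45 on day 12, Thy1+ cells 4.13, GFP+ cells 9.53 and iPS cells 8.57 to 9.90. Its rise in SSEA1+ cells therefore rested on the day 12 array, without which the change from day 6 was 0.76 (adjusted p = 0.522). Slc15a1 came later still. It stood between 3.42 and 4.73 on every MEF and sorted array but GFP+, at 6.21 in GFP+ cells and at 8.56, 9.27 and 9.45 in iPS cells. The organic anion transporter gene Slc22a7 and the toxin extrusion gene Slc47a1 were higher in iPS cells by 2.53 and 2.31, and Slc22a23, at 9.54 and 9.53 in day 3 SSEA1+ cells against 6.58 and 6.42 in MEFs, stood at 7.17 to 7.95 in iPS cells. Slc44a1 stood at 6.75 and 7.18 in MEFs, 5.89 on the day 12 SSEA1+ array, 8.64 on the day 12 Thy1+ array and 5.38 to 5.68 in iPS cells, so that the fractions moved to opposite sides of the MEF arrays.

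The position along the way of each of the 81 Slc genes that separated MEFs from iPS cells was expressed as its difference from the MEF mean divided by the difference of the iPS mean, so that 0 is the MEF and 1 the iPS level. The members were chosen by the end points, and these places are a description with no test. Places were not computed for other genes, so the timing cannot be called particular to the Slc genes. In day 3 SSEA1+ cells 25 of the 44 members lower in iPS cells were past 0.5, and 13 of the 37 higher ones. By day 12, 7 of the lower and 20 of the higher members had not been past 0.5 on any day. The median place of the lower members was 0.55 on day 3 and 0.72 on day 12, that of the higher members 0.22 and 0.44, and in GFP+ cells the medians were 0.89 and 0.84. In SSEA1+ cells all 8 amino acid transporters lower in iPS cells were past 0.25 on day 3 and 7 of them past 0.5. All 4 metal ion transporters higher in iPS cells were below 0.5 through day 12. Neither was particular to SSEA1+ cells. In Thy1+ and in double-negative cells all 8 were past 0.5 on day 3, and all 4 stayed below 0.5 through day 12. In Thy1+ cells 21 lower and 9 higher members were past 0.5 on day 3, and the median of the lower members was 0.42 on day 3 and 0.25 on day 12. Several members passed beyond the iPS level: Slc22a23 stood at 2.56 and Slc6a9 at 1.29 in day 3 SSEA1+ cells, and Slc39a8 lay on the far side of the MEFs in GFP+ cells, at −2.29.

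**Figure D4:**
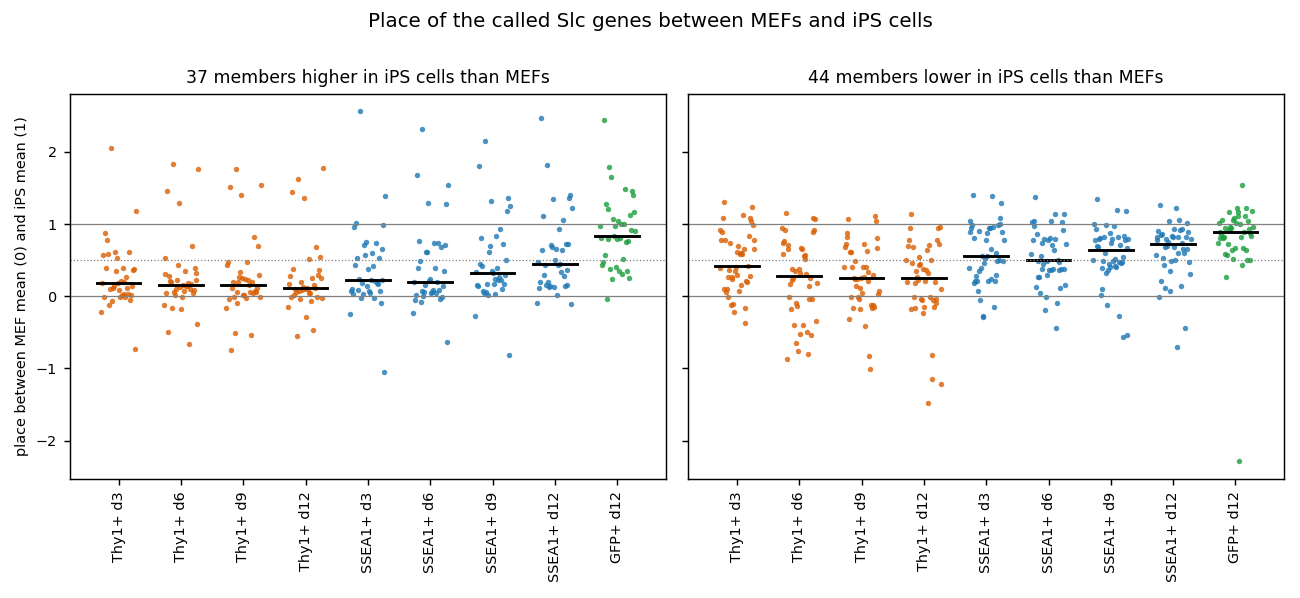
Place of each Slc gene that separated MEFs from iPS cells (points, ordered by name within a column) on the line from the MEF mean (0) to the iPS mean (1), for the 37 higher (left) and 44 lower members (right), with a bar at the median, in Thy1+ (orange), SSEA1+ (blue) and GFP+ cells (green). Lower members of SSEA1+ cells have a median of 0.55 on day 3 already, and higher members reach 0.44 on day 12 and 0.84 in GFP+ cells.

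Genes that work with the carriers were read from lists of partners. Of 11 measured genes of the amino acid stress response, which Atf4 drives and which induces several amino acid transporters, 0 rose and 4 fell in day 3 SSEA1+ cells, with log2 differences of −3.94 for Chac1, −3.91 for Trib3, −2.30 for Ddit3 and −1.49 for Aldh18a1. In day 3 Thy1+ cells 5 fell, the same 4 and the serine synthesis gene Psph by 1.26. Trib3 stood at 8.75 and 9.02 in MEFs, between 4.66 and 5.31 on the 6 arrays of day 3 and at 6.98 to 7.87 in iPS cells. Asns, the asparagine synthetase gene, stood at 11.29 and 11.30 in MEFs, 10.67 and 10.61 in day 3 SSEA1+ cells and 11.81 to 11.91 in iPS cells, with no 2-fold difference. The median of the list was −0.67 in day 3 SSEA1+ cells, beside 0.05 over all genes, of which 7.33% rose and 8.8% fell.

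Ion pumps set the gradients that many carriers use. Of 6 measured pump genes 3 were higher and 0 lower in iPS cells, where 15.4% of all genes were higher and 15.3% lower: Atp1b2 by 3.35 and Atp1b1 by 1.69, both beta subunits of the sodium pump, and Atp12a by 2.06. Atp12a stood at 3.35 and 3.43 in MEFs, 7.30 and 7.52 in day 3 SSEA1+ cells, 9.47 and 9.49 on day 6, 8.93 on day 9, 7.96 on day 12, 4.51 in GFP+ cells and 5.09 to 5.68 in iPS cells. It was thus high in sorted cells, like Slc12a3 and Slc39a14, and lower again in GFP+ cells, by a log2 difference of −3.45 from day 12 SSEA1+ cells. Unlike Slc12a3 it was also high in Thy1+ cells, at 6.20 and 6.12 on day 3 and 7.94 on day 12.

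Of 11 measured chaperones and regulators, 1 was lower and 0 higher in iPS cells, the monocarboxylate transporter chaperone gene Nptn by a log2 difference of −1.73. In day 3 SSEA1+ cells the kinase gene Sgk1, which keeps several carriers at the cell surface, fell by 3.48, the chaperone gene Emb fell by 1.30 and the ubiquitin ligase gene Nedd4l rose by 1.30. Sgk1 stood at 11.70 and 11.65 in MEFs, 8.16 and 8.23 in day 3 SSEA1+ cells, 11.16 in GFP+ cells and 12.04 to 12.14 in iPS cells. Txnip, which lowers glucose uptake, rose by 1.76 in Thy1+ cells from day 3 to days 9 and 12. For comparison, of 34 measured ABC transporters, the other large family of membrane transporters, 4 were higher and 1 lower in iPS cells than in MEFs, where 15.4% of all genes were higher and 15.3% lower.

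Promoter sequences were read for the members to see which motifs members of the same direction hold. The RefSeq promoter table (GRCm38.p6), whose windows span each start, held 190 of the 245 Slc genes. The E-box CACGTG, the site that Myc and related factors bind, was searched for on either strand, on which it reads the same. It was in 7 of the 26 promoters of members higher in iPS cells (26.9%), in 2 of the 35 of members lower (5.71%), in 14.7% of the Slc promoters and in 10.8% of the promoters of genes on the arrays. Of the members called in day 3 SSEA1+ cells, it was in 2 of the 7 promoters of those that rose (28.6%) and in 3 of the 22 of those that fell (13.6%). The members were chosen by their difference, a match is a description and not a site, and whether Myc bound was not tested. Windows of some of the 7 members higher in iPS cells with an E-box are printed 5′ to 3′ on the gene's strand. They are in lower case with the E-box in capitals.
Slc20a1, chr2:129198673-129198772, + strand: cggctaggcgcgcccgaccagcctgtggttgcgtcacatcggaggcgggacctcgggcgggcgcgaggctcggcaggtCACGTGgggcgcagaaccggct
Slc16a1, chr3:104638417-104638516, + strand: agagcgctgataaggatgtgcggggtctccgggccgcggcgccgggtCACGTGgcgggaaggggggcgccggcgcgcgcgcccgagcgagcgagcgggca
Slc25a13, chr6:6217246-6217345, - strand: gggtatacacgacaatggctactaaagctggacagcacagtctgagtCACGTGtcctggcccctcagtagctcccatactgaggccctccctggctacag
Slc12a7, chr13:73763597-73763696, + strand: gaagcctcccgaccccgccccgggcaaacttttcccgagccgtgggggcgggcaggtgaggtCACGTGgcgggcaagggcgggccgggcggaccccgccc
Slc29a1, chr17:45595269-45595368, - strand: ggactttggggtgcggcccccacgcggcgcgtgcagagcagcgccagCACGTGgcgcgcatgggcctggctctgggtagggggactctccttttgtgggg

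The first base of the E-box lay at position −22 from the start in Slc20a1, −200 in Slc16a1, −125 in Slc25a13, −38 in Slc12a7 and −75 in Slc29a1. These members did not move together in time: Slc25a13 had risen by day 3 in all fractions, whereas Slc29a1 lay above every other array in iPS cells alone. Slc20a1 held another E-box at position −175. Slc25a15 and Slc25a33, the members higher in iPS cells with an E-box whose windows are not shown, held it at −77 and −8.

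The motif TGATGCA, a part of the element through which Atf4 acts on amino acid genes, was searched for on both strands. It was in 3 of the 22 promoters of members that fell in day 3 SSEA1+ cells (13.6%) and in 3.16% of the Slc promoters. It was in 2.67% of the promoters of genes on the arrays and in 3.63% of all 27025 promoters of the table. The octamer part ATGCAAA, also searched for, was in 0 of the 26 promoters of members higher in iPS cells and in 1 of the 35 of members lower. It was in 4.62% of the promoters of genes on the arrays and in 5.24% of all promoters. Among the 3 promoters with TGATGCA is that of Slc7a11, whose window holds TGATGCA on both strands, shown in capitals with the bases that overlap the octamer part.
Slc7a11, chr3:50443614-50443713, - strand: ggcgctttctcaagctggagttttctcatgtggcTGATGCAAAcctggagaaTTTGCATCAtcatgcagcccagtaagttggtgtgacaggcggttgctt

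Slc7a11 fell on day 3 beside Trib3 and Chac1, and its signal was dim on every array, from 3.09 to 4.99. Whether the motif bears on these levels was not tested.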

How the data were processed

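Gene expression was measured on arrays of probe sets deposited as log2 signals, which the authors normalized by RMA per the submitters' processing notes; no version is stated. On the 24 arrays 18003 of 22716 probe sets had 1 gene symbol and were used, 287 had several and 4426 none (20393, 691 and 1606 of 22690 in the 4-array table). Differences were fitted with limma 3.58.1 in R 4.3.3 over all genes, with Benjamini-Hochberg adjustment: 15 group means on 24 arrays, fraction and day on 18 sorted arrays, and EpCAM on 4. A group of 1 array takes the spread of the replicated groups. Figures used Python 3.11.15 and matplotlib 3.10.9. The members, classes and marker and partner lists were chosen with earlier results of these data known. Named genes are, in each comparison, up to 6 called members of largest difference in each direction without overlap of the groups, up to 2 called members of each class and direction, a set list of well-known transporters whether called or not, and the partner lists. Other Slc genes named as further members of a class or by an added comparison were chosen after their values were seen. In simulated data with 200 of 11807 genes changed by 1.5 (log2), 98.5% were called between iPS cells and MEFs, 96.5% in the later SSEA1+ step, 85% between GFP+ and SSEA1+ cells and 80.5% in the interaction, with 0 in the wrong direction. The simulated noise was independent and drawn from the fitted spread. That a lone array shares the spread of the replicated groups was therefore assumed and not checked. The simulation also changed far fewer genes than the 30.8% called between iPS cells and MEFs. No 2 arrays were identical. Alternatives tried were a trended and robust prior, median and quantile scaling, the mean of all probe sets, no minimum fold, no genes of the dimmest 25%, only the groups compared, a replicate block and leaving out single arrays.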

Additional observations from a re-analysis of the deposited data

Results flagged for a closer look

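The SSEA1+ minus Thy1+ difference changed between day 3 and days 9 and 12, by an interaction test in limma, for 14 Slc genes. That is 5.7% of the Slc genes, where 8.46% of all genes were called. It moved up for Slc12a3 by 2.75, Slc27a2 by 1.58, Slc16a6 by 1.42, Slc28a3 by 1.41, Slc7a3 by 1.36, Slc25a13 by 1.13 and Slc38a1 by 1.11. It moved down for Slc40a1 (−2.12), Slc44a1 (−1.91), Slc8a1 (−1.75), Slc7a2 (−1.49), the heme transporter gene Slc48a1 (−1.46), Slc38a4 (−1.16) and Slc50a1 (−1.003). Days 9 and 12 had 1 array for each fraction. Only the calls of Slc12a3, Slc44a1, Slc28a3, Slc38a1 and Slc48a1 held when any 1 array was left out. Over the same interaction 4 of 7 fibroblast markers moved down and 5 of 8 pluripotency and 2 of 6 trophoblast markers up, and their part in the result was not tested.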

How the results depend on the processing

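Of 2713 alternatives for named genes 2589 kept direction and call, 115 lost the call, 9 gained it and 0 reversed. Without a minimum fold the counts of called Slc genes were 142 between iPS cells and MEFs, 81, 66 and 62 in day 3 SSEA1+, double-negative and Thy1+ cells, 7 and 12 in the earlier and later SSEA1+ steps, 47 in late Thy1+ cells, 26 in the interaction, 51 between iPS and GFP+ cells, 86 between the fractions over all days and 3 by EpCAM. The shares of all genes without a minimum fold were not counted, so these counts say nothing particular to the Slc genes. Without the dimmest 25% the later SSEA1+ step had 3, with the mean of all probe sets the interaction had 9 and EpCAM 0, and with only the groups compared iPS against GFP+ cells had 13. The fit of only the groups compared could not be made for GFP+ against SSEA1+ cells. At a place of 0.75, 24 members were past it on day 3 in SSEA1+ cells. Leaving out single arrays gave 77 to 83 calls between iPS cells and MEFs, 36 to 39, 31 to 37 and 29 to 33 on day 3, 2 to 3 and 2 to 8 in the SSEA1+ steps, 13 to 17 in late Thy1+ cells, 10 to 20 in the interaction, 8 to 15 over all days, 20 to 22 between iPS and GFP+ cells and 0 by EpCAM. Without the day 6 Thy1+ M2 array GFP+ against SSEA1+ cells had 24. Scaling moved the median of all genes by at most 0.069.

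No common pairing by M2 and M3 was seen: over 21 pairs of groups the correlation of M2 minus M3 differences was −0.207 to 0.214, with 5 over 0.1. The check includes the day 6 Thy1+ M2 array with the high 3′ to 5′ difference. It cannot tell whether arrays of 1 label share animals or cultures. With the replicate block 83 were called between iPS cells and MEFs, 37, 32 and 31 on day 3, 3 and 5 in the SSEA1+ steps, 16 in late Thy1+ cells, 14 in the interaction, 20 in each GFP+ comparison, 10 over all days and 1 by EpCAM. Among named genes the block took Slc44a1 in the later SSEA1+ step to −0.97 and Slc40a1 between GFP+ and SSEA1+ cells to an adjusted p of 0.0523, and changed no other call.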
